A study of Oryza sativa with 16 samples.

Results

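Shoots of Nagina 22 (N22) seedlings under low nitrogen and low water (N-W-) were compared with shoots of N22 seedlings under ample nitrogen and low water (N+W-). The comparison therefore gives the effect of low nitrogen within water-stressed plants of a single genotype, tissue and labelled age. It covers the 22447 genes, of 37849 annotated genes, that had a CPM (counts scaled to library size) of at least 1 in 1 of the 2 libraries. A gene could thus be kept through its higher library alone. At the edge of that filter, Os12g0630750 was just inside, with 1.07 CPM of its library's exon reads, and Os01g0921100 was just outside, with 0.989 CPM.

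N22 is an aus-type upland rice known for drought tolerance and a weak response to nitrogen, and IR64 is a semi-dwarf indica variety that responds to nitrogen and is drought sensitive. The series holds 16 libraries, from roots and shoots of both genotypes. Beside the pair compared here, each genotype and tissue has well-watered groups with low nitrogen (N-W+) and with ample nitrogen (N+W+). Seedlings were grown in pots of vermiculite and perlite in a net-house, with ammonium nitrate as their nitrogen source, and RNA of 3 biological replicates was pooled before a library was made. Each group is thus 1 library, and the difference between the N22 shoot libraries has no replicate check.

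Both N22 low-water groups are labelled as 21-day-old seedlings that received 10 mL of water a day from day 15, against 100 mL for well-watered plants. The well-watered groups are labelled as 15-day-old seedlings. Between low-water and well-watered groups, water and labelled age therefore cannot be told apart. The nitrogen doses are uncertain. The treatment label pairs 0.4 mM ammonium nitrate with nitrogen stress and 0.08 mM with its absence, which is the reverse of what the group names say, and sample descriptions of N-W+ give 0.04 mM. The study's methods give still other doses and another water volume, so groups are called by their treatment names. They also describe 21 days of growth with no separate age for well-watered plants, unlike the label of 15 days.

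The N-W- library held 9101488 reads in exons and the N+W- library 6533384. A single read stood for 0.0935 CPM in the N-W- library and 0.156 CPM in the N+W- library after scaling by trimmed mean of M values (TMM), which is the scale of every CPM level given below. Ratios are log2 of N-W- over N+W-, with 0.5 reads added to each side, and a gene counted as past the fold rule above 2 or below -2. The 95% intervals are exact binomial intervals of the reads of both libraries. For a gene with no read in a library, the fold was set against a floor of 3 counts per library. Intervals and floors hold only the error of counting. Scaling by library totals instead of TMM moved the median ratio of all genes by 0.26, so that ratios and medians given here between -0.26 and 0 turned positive under it. Reads that mapped uniquely made up 84.6% of exon reads in the N-W- library and 84.8% in the N+W- library.

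Shoot markers were abundant in both libraries. The 8 light harvesting and Rubisco genes used as markers were all above 1 CPM and summed to 22390 CPM in N-W- shoots and 50170 CPM in N+W- shoots. Of 36 seed storage protein genes, 2 passed 1 CPM, and their sum was 6.92 CPM in N-W- shoots and 4.85 CPM in N+W- shoots. Root markers summed to 8.50 CPM in N-W- shoots and 64.3 CPM in N+W- shoots, and 355 of the N+W- reads came from RSOsPR10, a defence protein gene that is described again with its neighbours. The root marker RCc3 had 2 reads in N-W- shoots and 4 in N+W- shoots, and LSI1 had 53 in N-W- shoots and 52 in N+W- shoots. NRT2.1 and LSI2 had 12 and 4 reads in N-W- shoots and none in N+W- shoots. The meristem gene OSH1 had 1 read in each library, and OSH15 had 10 in N-W- shoots and 4 in N+W- shoots. Roc1(t), listed with them as a marker of meristem and young stem, had 1963 reads in N-W- shoots and 938 in N+W- shoots. In whole shoots, fewer cells of a type and less RNA per cell cannot be told apart.

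Rice takes up nitrate and ammonium through transporters of the NRT and AMT families. Nitrate is reduced by nitrate reductase and nitrite reductase, and the ammonium enters amino acids through glutamine synthetase and glutamate synthase. Leaves that lack nitrogen are known to draw on nitrogen bound in chloroplast proteins, nucleic acids and ureides. Low water is known to raise dehydrins and other protective proteins.

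At low water, 2417 genes (10.8%) were past the fold rule in N22 shoots. Of these, 1467 (6.54% of genes) were higher in N-W- shoots and 950 (4.23%) were lower. The whole interval lay beyond the threshold for 461 higher genes (2.05%) and 464 lower genes (2.07%). One of the libraries held no read for 640 of the genes past the rule, 195 without a read in N-W- shoots and 445 without a read in N+W- shoots. With such genes set to the smallest fold that 3 counts allow, 1213 genes were higher and 920 lower. The plot of the ratio against the level shows that the surplus of higher genes lies at low levels.

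**Figure D1:**
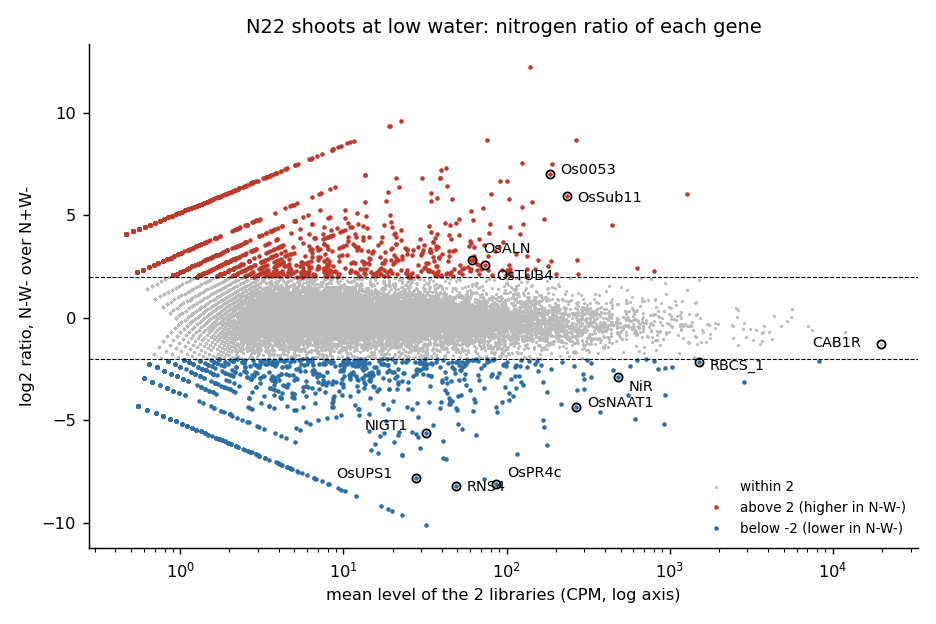
Log2 ratio of N-W- over N+W- in N22 shoots at low water (vertical axis) against the mean level of both libraries in CPM (log axis), with 1 point per gene for 22447 genes. The 1467 genes above 2 and the 950 genes below -2 are coloured, and higher genes outnumber lower ones most at the left, where levels are under 2 CPM.

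Genes under 2 CPM on average were higher in 18.2% of cases and lower in 8.55%. Among the 1626 genes of at least 100 CPM, 33 were higher and 55 were lower. The higher genes together took 3.87% of the N-W- reads and 0.347% of the N+W- reads. The lower genes took 1.24% of the N-W- reads and 6.62% of the N+W- reads. Genes whose reads were mostly shared with other loci, with under 50% unique reads, made up 30.7% of higher and 35.05% of lower genes, against 16.7% of all genes. On the 12 chromosomes, the share of higher genes ran between 5.77% and 7.91% and that of lower genes between 3.29% and 5.796%.

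The only replication of this nitrogen contrast in the series is IR64. A joint fit over the 8 shoot libraries (edgeR's quasi-likelihood test with Benjamini-Hochberg adjustment) therefore gave the difference of N-W- from N+W- averaged over both genotypes, with 3 residual degrees of freedom. It called 327 of 22913 genes (1.43%), 203 of them higher (0.886%) and 124 lower (0.541%). In the sentences that follow, "rose" and "fell" are used of genes that passed this test. Its p-values measure the spread between genotypes and single pooled libraries. The number of calls rests on single libraries, since it was 0 without the IR64 N+W- library, with 1835 genes at an unadjusted p under 0.05, and 7 without the N22 N+W- library, but 1073 without the N22 N-W- library. The test covered 2004 of the 2417 genes. Among the genes kept for N22, 322 were called.

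Of the 12 higher genes with the farthest intervals, Os0053 (Os02g0814200) was at 365 CPM in N-W- shoots and 2.82 CPM in N+W- shoots, a log2 ratio of 6.99 (6.35 to 7.77). OsSub11, a subtilisin-like protease, was at 460 CPM in N-W- shoots and 7.51 CPM in N+W- shoots, a log2 ratio of 5.93 (5.53 to 6.38). Both rose in the joint fit of both genotypes, each at an adjusted p of 0.00923 in edgeR's quasi-likelihood test.

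The class III peroxidase prx32 had 1925 reads in N-W- shoots and 11 in N+W- shoots. A further peroxidase, prx2, had 447 reads in N-W- shoots and 2 in N+W- shoots. Class III peroxidases are secreted enzymes that form and break down hydrogen peroxide in the wall. OsFLA19, a fasciclin-like arabinogalactan protein, had 905 reads in N-W- shoots and 3 in N+W- shoots, and the arabinogalactan protein OsAGP5 had 2178 reads in N-W- shoots and 23 in N+W- shoots. Of the OsAGP5 reads, 27.8% were unique. OsHyPRP02, a hybrid proline-rich protein, had 839 reads in N-W- shoots and 3 in N+W- shoots, and the germin-like protein GER8 had 727 reads in N-W- shoots and 6 in N+W- shoots. All 6 of these genes rose in the joint fit, with adjusted p between 0.0133 and 0.0237 in edgeR's quasi-likelihood test.

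OsGELP73, a GDSL-type esterase, had 479 reads in N-W- shoots and none in N+W- shoots, which makes it at least 95.4-fold higher. The cytochrome P450 gene OsCYP87C2 was at 281 CPM in N-W- shoots and 5.63 CPM in N+W- shoots. BGL had 642 reads in N-W- shoots and 3 in N+W- shoots. These genes rose as well (adjusted p of 0.0262, 0.0272 and 0.0156 in edgeR's quasi-likelihood test). OsCslF8, of the family that makes mixed-linkage glucan, had 197 reads in N-W- shoots and none in N+W- shoots, at least 39.2-fold higher, with 12.7% unique reads. Its joint adjusted p was 0.0501 in the same edgeR test, just past the threshold of 0.05.

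Of the 12 lower genes with the farthest intervals, OsPR4c, a pathogenesis-related (PR) protein, was at 0.561 CPM in N-W- shoots and 173 CPM in N+W- shoots, a log2 ratio of -8.12 (-9.72 to -7.14). RNS4, an S-like ribonuclease, had 3 reads in N-W- shoots and 627 in N+W- shoots, a log2 ratio of -8.18 (-10.73 to -6.90). Both fell in the joint fit (adjusted p of 0.0233 and 0.0133 in edgeR's quasi-likelihood test).

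OsUPS1, a ureide permease that moves allantoin, had 2 reads in N-W- shoots and 353 in N+W- shoots. DIP3 was at 4.67 CPM in N-W- shoots and 351 CPM in N+W- shoots, and OsCBSCLC7, of the chloride channel family, was at 8.32 CPM in N-W- shoots and 332 CPM in N+W- shoots. OsFtsH6, a chloroplast protease gene, had 4 reads in N-W- shoots and 288 in N+W- shoots. OsStr7, a sulfurtransferase, had 3 reads in N-W- shoots and 205 in N+W- shoots. Each of these 5 genes fell, with adjusted p between 0.00923 and 0.0157 in edgeR's quasi-likelihood test.

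Rir1b_2, a defence gene, had 25 reads in N-W- shoots and 812 in N+W- shoots of N22, while the IR64 low-water libraries held no read of it. Over the IR64 shoot libraries its highest level was 0.159 CPM, so its joint adjusted p of 0.0174 in edgeR's quasi-likelihood test describes reads that were nearly all from N22. OsPR1b_1 had 24 reads in N-W- shoots and 1459 in N+W- shoots, PR1A had 7 reads in N-W- shoots and 375 in N+W- shoots, and OsPR1 had none in N-W- shoots and 94 in N+W- shoots, at least 52.5-fold lower. These PR1 proteins did not pass the joint test (adjusted p between 0.0664 and 0.145 in edgeR's quasi-likelihood test). OsPCF5, a TCP transcription factor, had no read in N-W- shoots and 87 in N+W- shoots, of which 2.30% were unique.

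**Figure D2:**
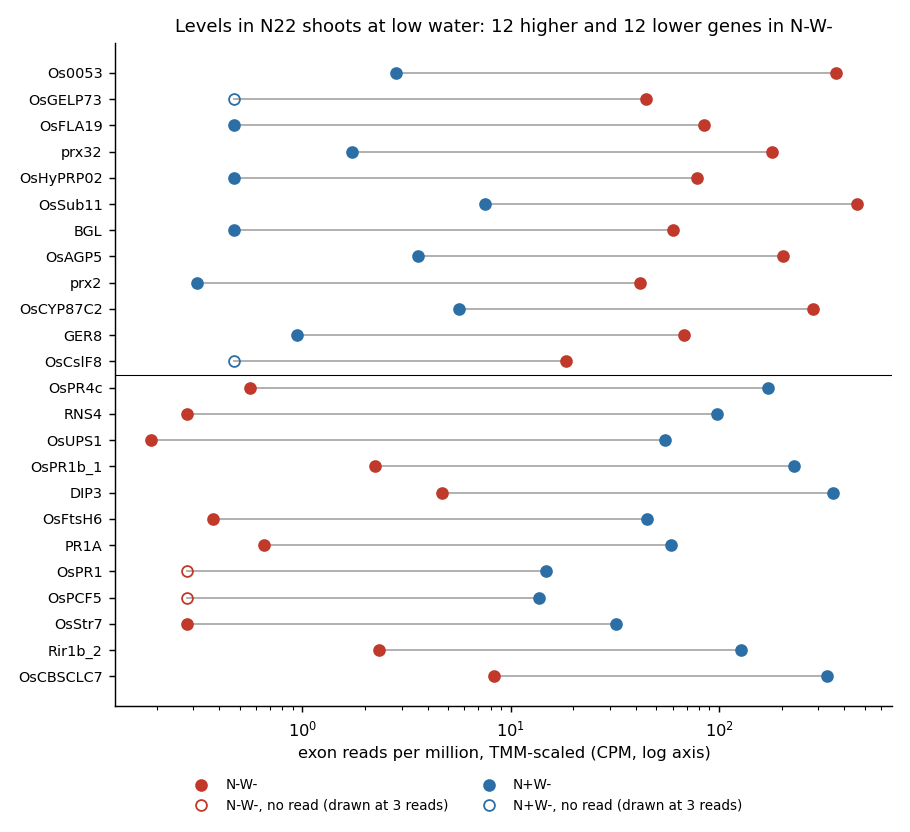
Levels in CPM (log axis) of the 12 higher genes, top, and the 12 lower genes, bottom, whose counting intervals lie farthest from 0, in the N-W- library (red) and the N+W- library (blue) of N22 shoots at low water. Open points are libraries without a read, drawn at 3 reads; Os0053 is at 365 CPM in N-W- shoots and 2.82 CPM in N+W- shoots, and OsCBSCLC7 at 8.32 CPM in N-W- shoots and 332 CPM in N+W- shoots.

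Genes without a symbol in the files showed differences of the same size. Os10g0150800 had 5663 reads in N-W- shoots and 8 in N+W- shoots, and its neighbour Os10g0150700 had 1629 reads in N-W- shoots and 2 in N+W- shoots. Os06g0229066 lies beside OsFtsH6 on chromosome 6 and had 6 reads in N-W- shoots and 930 in N+W- shoots. A further 3 such genes had no unique read, so their reads cannot be assigned to them. They were Os04g0644433, with 3000 reads in N-W- shoots and none in N+W- shoots, and Os10g0328700 and Os03g0389601, with no read in N-W- shoots and 413 and 292 reads in N+W- shoots.

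Measured as RPKM, which are deposited reads per exon length and library size, the 5 highest genes of each library included antenna genes of photosynthesis. CAB1R, a chlorophyll a/b-binding protein, was at 3109 RPKM in N-W- shoots and 5252 RPKM in N+W- shoots. CAB2R was at 1676 RPKM in N-W- shoots and 2792 RPKM in N+W- shoots. GRP162, a glycine-rich protein, was at 2513 RPKM in N-W- shoots and 2292 RPKM in N+W- shoots, but had a log2 ratio of -0.38 on the read scale. Os01g0256500 was at 1286 RPKM in N-W- shoots and 3872 RPKM in N+W- shoots, with a log2 ratio of -2.101 on the read scale. The other genes among the 5 highest of a library were Os03g0818050, Os01g0791033 and Os11g0127951, with log2 ratios of 0.37, -0.70 and -0.57. Os11g0127951 and Os03g0818050 have exon lengths of 249 and 237 bases.

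Genes of nitrate reduction were lower in N-W- shoots, and 1 of the 4 was past the fold rule, beside 4.23% of all genes on the lower side. The nitrite reductase NiR was at 114 CPM in N-W- shoots and 845 CPM in N+W- shoots, a log2 ratio of -2.89 (-2.98 to -2.80). It fell in the joint fit by 3.18 on the log2 scale (SE 0.50, adjusted p = 0.0330, edgeR's quasi-likelihood test), and 16.2% of its reads were unique. The nitrate reductase OsNR1 was at 103 CPM in N-W- shoots and 378 CPM in N+W- shoots, with a log2 ratio of -1.88 in N22 and -3.27 in IR64. OsNIA1 had 69 reads in N-W- shoots and 158 in N+W- shoots, and OsNIA2 had 423 reads in N-W- shoots and 307 in N+W- shoots, with log2 ratios of -1.93 and -0.28, and that of OsNIA2 was 0.18 with RPKM. All 4 intervals lay below 0, and the 3 reductases of nitrate did not pass the joint test.

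Of 6 nitrogen signalling genes listed, 5 were above 1 CPM and 1 was past the rule, on the lower side, beside 4.23% of all genes. NIGT1, a nitrate-inducible repressor of nitrogen responses, had 13 reads in N-W- shoots and 401 in N+W- shoots, a log2 ratio of -5.62 (-6.61 to -4.90), and it fell in the joint fit (adjusted p = 0.0228, edgeR's quasi-likelihood test). In IR64 it was at 0.448 CPM in N-W- shoots and 72.0 CPM in N+W- shoots. OsBT, a regulator known to limit nitrogen use, was at 229 CPM in N-W- shoots and 606 CPM in N+W- shoots, a log2 ratio of -1.40 (joint adjusted p = 0.166, edgeR's quasi-likelihood test). OsTCP19, OsCV and DEP1 had log2 ratios of -0.26, -0.02 and 0.14.

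Of 7 high-affinity nitrate transporters and partner proteins listed, 6 were above 1 CPM, 2 were past the rule on the higher side, against 6.54% of all genes, and none on the lower side. NRT2.4 had 522 reads in N-W- shoots and 87 in N+W- shoots, a log2 ratio of 1.84 (1.51 to 2.19). NRT2.3 had 123 reads in N-W- shoots and 29 in N+W- shoots, and OsNAR2.2, a partner protein of NRT2 transporters, had 52 reads in N-W- shoots and 5 in N+W- shoots. NRT2.1 had 12 reads in N-W- shoots and none in N+W- shoots, at least 2.39-fold higher, with 8.33% unique reads. On unique reads NRT2.1 was within the rule, at a log2 ratio of 1.37, which leaves OsNAR2.2. Both NRT2.1 and OsNAR2.2 reached 1 CPM in N-W- shoots alone, so they were kept through their higher library. NAR2.1 had 20 reads in each library, a log2 ratio of -0.73 (-1.71 to 0.23), and OsNRT3.2 had one of 0.37. The median of the 6 genes above 1 CPM was 1.58, or 1.29 with NRT2.1 at its bound, beside 0.03 over all genes. The joint test covered 5 of the 6 genes, without NRT2.1, and called none. The same genes had a median of 0.12 in IR64.

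Of 10 ammonium transporters listed, 6 were above 1 CPM and 1 was past the rule, on the higher side, beside 6.54% of all genes. AMT1_1 had 32 reads in N-W- shoots and none in N+W- shoots, at least 6.37-fold higher, with 15.6% unique reads. AMT1_2 had 735 reads in N-W- shoots and 280 in N+W- shoots, a log2 ratio of 0.65. AMT3, OsAMT2_3, OsAMT3_1 and OsAMT3_2 had log2 ratios of -1.09, -0.49, -1.53 and -0.09, and that of OsAMT2_3 was 0.01 with RPKM. Of 24 low-affinity transporter genes of the NRT1/PTR family, 19 were above 1 CPM. Of these 1 was past the rule, on the lower side, beside 4.23% of all genes. That was OsNPF7.2, with 8 reads in N-W- shoots and 22 in N+W- shoots, which was within the rule under library totals, at -1.86. The nitrate sensor and transporter NRT1.1B had 1458 reads in N-W- shoots and 1870 in N+W- shoots, a log2 ratio of -1.10, and OsNRT1.1A had one of -1.02. OsNPF2.4 and OsNPF8.1 had log2 ratios of 0.48 and 0.80. The other members of the family above 1 CPM had log2 ratios between -1.15 (OsNRT1.4) and 1.78 (OsPTR6).

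Of 12 genes matched by symbol for ammonium assimilation, 10 were above 1 CPM, with a median of -0.16. Of these 1, OsGS1_2, was past the rule, on the lower side, beside 4.23% of all genes. The cytosolic glutamine synthetase OsGS1_1 was at 222 CPM in N-W- shoots and 126 CPM in N+W- shoots, a log2 ratio of 0.81, and GLN1 had 329 reads in N-W- shoots and 85 in N+W- shoots, one of 1.21. The plastid glutamine synthetase OsGLN2 had 1017 reads in N-W- shoots and 695 in N+W- shoots, and the ferredoxin-dependent glutamate synthase OsGLU had 5580 reads in N-W- shoots and 3616 in N+W- shoots. Their log2 ratios were -0.19 and -0.12 in N22, beside -1.94 and -1.43 in IR64. The glutamate synthase OsGLT2 had a log2 ratio of -0.49 in N22, which was 0.01 with RPKM, and one of -3.34 in IR64. The joint test covered 9 of the 10 genes and called none, and the genotype difference was not called in any of them.

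The remaining members included OsGS1_2, with 1 read in N-W- shoots and 19 in N+W- shoots. The dehydrogenases OsGDH1 and OsGDH2 had log2 ratios of 0.65 and -0.29, and that of OsGDH2 was 0.13 with RPKM. OsGLN1, which entered the list by its symbol and may be another gene, had 6 reads in N-W- shoots and 10 in N+W- shoots. GS2 also entered by its symbol, which is that of the growth regulator GRAIN SIZE 2 as well. It had 24 reads in N-W- shoots and 14 in N+W- shoots. The list's count and median include OsGLN1 and GS2.

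Among the 7 ureide and urea genes, all above 1 CPM, 1 was higher and 1 lower, and among the 4 asparagine genes 1 was lower. Over all genes 6.54% were higher and 4.23% lower. OsALN, the allantoinase that opens the ring of allantoin, was at 108 CPM in N-W- shoots and 15.2 CPM in N+W- shoots, a log2 ratio of 2.83 (2.53 to 3.15). It rose in the joint fit by 2.48 on the log2 scale (SE 0.40, adjusted p = 0.0343, edgeR's quasi-likelihood test), and N22 roots at low water had a log2 ratio of 4.98. The ureide permease OsUPS1, given above, fell by 6.99 on that scale (SE 0.69).

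OsUAH and OsAAH, which act after allantoinase, had log2 ratios of -0.85 and -0.11. The urea transporter OsDUR3 had 749 reads in N-W- shoots and 262 in N+W- shoots, a log2 ratio of 0.77, and UREG and OsUPS had ratios of 0.09 and -1.99. The asparaginase OsASNase1 had 523 reads in N-W- shoots and 131 in N+W- shoots, a log2 ratio of 1.25, and OsASNase2 had one of 0.27. The asparagine synthetase ASN1 had 23 reads in N-W- shoots and 57 in N+W- shoots, a log2 ratio of -2.02 that was -1.76 under library totals, whereas ASN had one of 0.83.

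**Figure D3:**
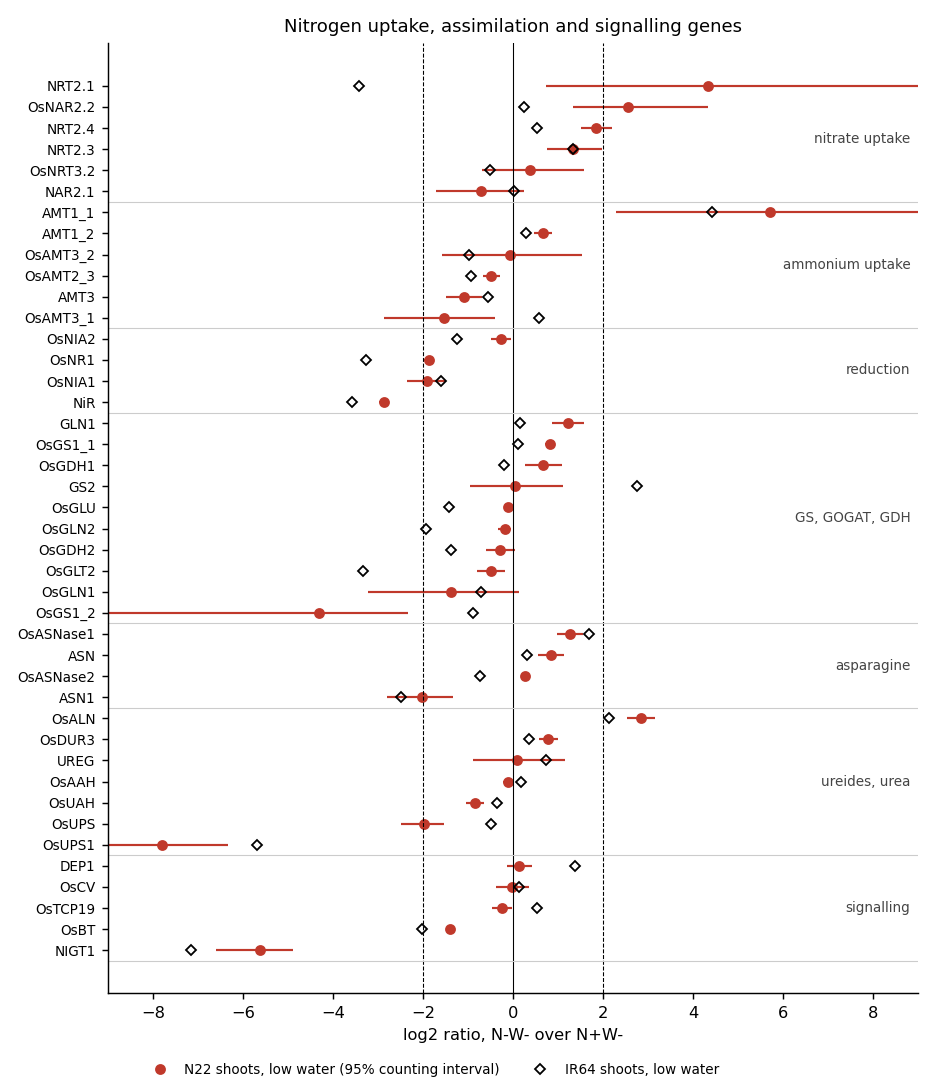
Log2 ratio of N-W- over N+W- for nitrogen genes of at least 1 CPM in N22 shoots at low water (red, with the 95% counting interval, cut where it passes the axis) and the same ratio in IR64 shoots at low water (open diamonds). NIGT1, OsUPS1 and NiR lie below -2 in both genotypes and OsALN above 2 in both, while OsGLU, OsGLN2 and OsGLT2 lie near 0 in N22 and between -3.34 and -1.43 in IR64.

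Ribonucleases are known to recycle nucleic acids in ageing and starved tissue. Of 8 genes listed, 6 were above 1 CPM, of which 3 were past the rule on the lower side, against 4.23% of all genes, and none on the higher side, with a median log2 ratio of -2.15. Beside RNS4, OsRNS3 had 1414 reads in N-W- shoots and 4917 in N+W- shoots, and it fell as well (adjusted p = 0.0403, edgeR's quasi-likelihood test). OsRNS5 had 1 read in N-W- shoots and 64 in N+W- shoots, and its joint adjusted p was 0.0894 in that test. RNS4, OsRNS5 and OsRNS1 reached 1 CPM in N+W- shoots alone, so they were kept through their higher library. OsRNS3, OsRNS2 and OsRNS6, at 1 CPM in both libraries, had log2 ratios of -2.54, 0.39 and -0.13. OsRNS2, OsRNS6 and OsRNS1 were not past the rule. OsRNS2 was higher, with 228 reads in N-W- shoots and 104 in N+W- shoots, and the interval of OsRNS6 spanned 0. OsRNS1 had 4 reads in N-W- shoots and 9 in N+W- shoots, with 7.69% unique reads, and its log2 ratio of -1.76 turned to 1.37 on unique reads.

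Many genes of protease inhibitors and PR proteins were lower. Of 61 listed, 47 were above 1 CPM, of which 20 were lower, against 4.23% of all genes, and 1 was higher, with a median of -0.98. The 6 members that fell in the joint fit were OsPR2_1, OCPI2, RBBI3-1, RBBI3-2, RBBI2-1 and Cht8 (adjusted p between 0.0178 and 0.0439, edgeR's quasi-likelihood test). Over all genes tested, 0.541% fell. OsPR2_1 had 8 reads in N-W- shoots and 271 in N+W- shoots, and Cht8, a chitinase, had 75 reads in N-W- shoots and 773 in N+W- shoots.

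RBBI2-1, a Bowman-Birk inhibitor of trypsin-like proteases, had 719 reads in N-W- shoots and 3402 in N+W- shoots. OsPR10a had 108 reads in N-W- shoots and 2066 in N+W- shoots, a log2 ratio of -4.99 in N22 beside -0.68 in IR64. The only higher member was OsPR1#021, with 10 reads in N-W- shoots and none in N+W- shoots.

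Dehydrins and other LEA proteins, which protect cells as they dry, were mostly lower in the N-W- library. Of 30 listed, 16 were above 1 CPM, of which 8 were past the rule on the lower side, against 4.23% of all genes, none on the higher side, 15 had a negative ratio, and the median was -1.74. Rab16A had 7 reads in N-W- shoots and 224 in N+W- shoots, RAB16B had 8 in N-W- shoots and 50 in N+W- shoots, and OsLEA3-1 had 1 in N-W- shoots and 37 in N+W- shoots. OsLEA14, at a log2 ratio of -2.01, was within the rule under library totals, at -1.75. Of the 8 lower genes, only OsLEA14 reached 1 CPM in both libraries, while the others did so in N+W- shoots alone. OsLEA9, OsLEA11 and OsLEA7, at 1 CPM in both, had log2 ratios of -1.47, -1.26 and -0.92. Those of wsi76, OsLEA24, OsLEA30 and LEA8, also at 1 CPM in both, were -0.70, -0.44, -0.09 and 0.41. The joint test covered 12 of the 16 genes and called none of them, while OsLEA3-1, OsLEA16, OsLEA25 and OsLEA33, all past the rule, were not covered. The same genes had a median of -1.44 in IR64 at low water.

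Photosynthesis genes were modestly lower and few were past the rule. All 8 antenna genes were above 1 CPM and had a median log2 ratio of -0.95, 22 of 23 photosystem genes -0.64, and all 9 Calvin cycle genes -0.57, beside 0.03 over all genes. In each of these groups 1 gene was past the rule on the lower side and none on the higher side, beside 4.23% and 6.54% of all genes. Lhcb1.1 was at 586 CPM in N-W- shoots and 5142 CPM in N+W- shoots, the photoprotective subunit gene PSBS2 at 56.4 CPM in N-W- shoots and 318 CPM in N+W- shoots, and the Rubisco small subunit gene RBCS_1 at 548 CPM in N-W- shoots and 2465 CPM in N+W- shoots. RBCS_1 was within the rule under library totals, at a log2 ratio of -1.90. Genes at or next to these medians differed less with RPKM. RbcS3 of the Calvin cycle was at 174.5 RPKM in N-W- shoots and 182.1 RPKM in N+W- shoots. PSBS1 of the photosystems was at 151.9 RPKM in N-W- shoots and 165.4 RPKM in N+W- shoots. LHCB of the antenna was at 490.9 RPKM in N-W- shoots and 677.5 RPKM in N+W- shoots.

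CAB1R had a log2 ratio of -1.27 in N22 and -1.97 in IR64. The Rubisco gene RbcS1 went against its group, with 159 CPM in N-W- shoots and 42.2 CPM in N+W- shoots, a log2 ratio of 1.92. In IR64 at low water the medians of the same genes were -1.83 for the antenna, -1.67 for photosystems and -1.74 for the Calvin cycle. None of these genes passed the joint test, and the genotype-by-nitrogen test called none of them.

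Pigment genes had medians near that of all genes. The 12 of 14 chlorophyll synthesis genes above 1 CPM had a median of 0.11 and the 8 of 9 chlorophyll breakdown genes one of 0.27, with none past the rule. NYC1, a chlorophyll b reductase, had 948 reads in N-W- shoots and 244 in N+W- shoots, a log2 ratio of 1.21, and OsRCCR2 had one of -1.69.

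All 10 tubulin genes, which code for the building blocks of microtubules, had intervals above 0, with a median log2 ratio of 1.5. OsTUB4 was at 127 CPM in N-W- shoots and 21.6 CPM in N+W- shoots, a log2 ratio of 2.55, and it rose in the joint fit (adjusted p = 0.0475, edgeR's quasi-likelihood test). TUB6 had 199 reads in N-W- shoots and 23 in N+W- shoots, and OsTubA3 had 6814 reads in N-W- shoots and 1367 in N+W- shoots.

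Of 72 expansins and xyloglucan endotransglucosylases, 37 were above 1 CPM. Of these enzymes and proteins, which loosen and rejoin wall polymers, 11 were higher, against 6.54% of all genes, and 2 were lower, with a median of 0.65. OsXTH28 was at 97.0 CPM in N-W- shoots and 5.79 CPM in N+W- shoots, a log2 ratio of 4.05. OsXTH19, OsXTH21 and OsEXPA7 had log2 ratios of 3.80, 3.95 and 4.19. These 4 genes rose (adjusted p between 0.0156 and 0.0311, edgeR's quasi-likelihood test). OsXTH15 went the other way, with 36 reads in N-W- shoots and 153 in N+W- shoots.

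Class III peroxidases lay on both sides. Of 104 listed, 57 were above 1 CPM, of which 10 were higher, against 6.54% of all genes, and 7 lower, against 4.23%, with a median of 0.29. Those that rose were prx2, prx32, prx97, PRX41, prx132, PRX134 and prx138, and those that fell were prx15, prx29 and prx62. Over all genes tested, 0.886% rose and 0.541% fell. Among these peroxidases, prx138 was at 154 CPM in N-W- shoots and 16.1 CPM in N+W- shoots. The level of prx29 was 49.6 CPM in N-W- shoots and 549 CPM in N+W- shoots. Joint adjusted p for the 10 peroxidases that rose or fell lay between 0.0145 and 0.0329 in edgeR's quasi-likelihood test.

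Of 43 cellulose synthase and related genes, 29 were above 1 CPM, of which 2 were higher and 2 lower, near the shares of 6.54% and 4.23% over all genes, with a median of 0.04. OsCesA1 had 2302 reads in N-W- shoots and 321 in N+W- shoots, a log2 ratio of 2.1, and CSLF6, which makes mixed-linkage glucan, had 15345 reads in N-W- shoots and 2863 in N+W- shoots, one of 1.68. The 77 of 85 cytosolic ribosomal protein genes above 1 CPM had a median of 0.46, and 67 of them had a positive ratio, with none past the rule.

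Of 46 cell cycle and DNA replication genes, 24 were above 1 CPM. Among these none was past the rule, and the median log2 ratio was -0.03. The same genes had a median of 1.42 in IR64 at low water, where 11 were higher, against 12.2% of all genes in that comparison. The meristem markers OSH1 and OSH15 moved with this in IR64. There OSH1 had 71 reads in N-W- shoots and none in N+W- shoots, and OSH15 had 32 in N-W- shoots and none in N+W- shoots. The root marker RCc3 had 136 reads in N-W- shoots and 10 in N+W- shoots of IR64. In N22, OSH15 had 10 reads in N-W- shoots and 4 in N+W- shoots. Roc1(t), a further marker of meristem and young stem, had log2 ratios of 0.48 in IR64 and 0.32 in N22. The part of these tissues in the difference between genotypes was not tested. OsPCNA, the sliding clamp of DNA replication, had 207 reads in N-W- shoots and 93 in N+W- shoots of N22, a log2 ratio of 0.41 beside 2.21 in IR64.

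**Figure D4:**
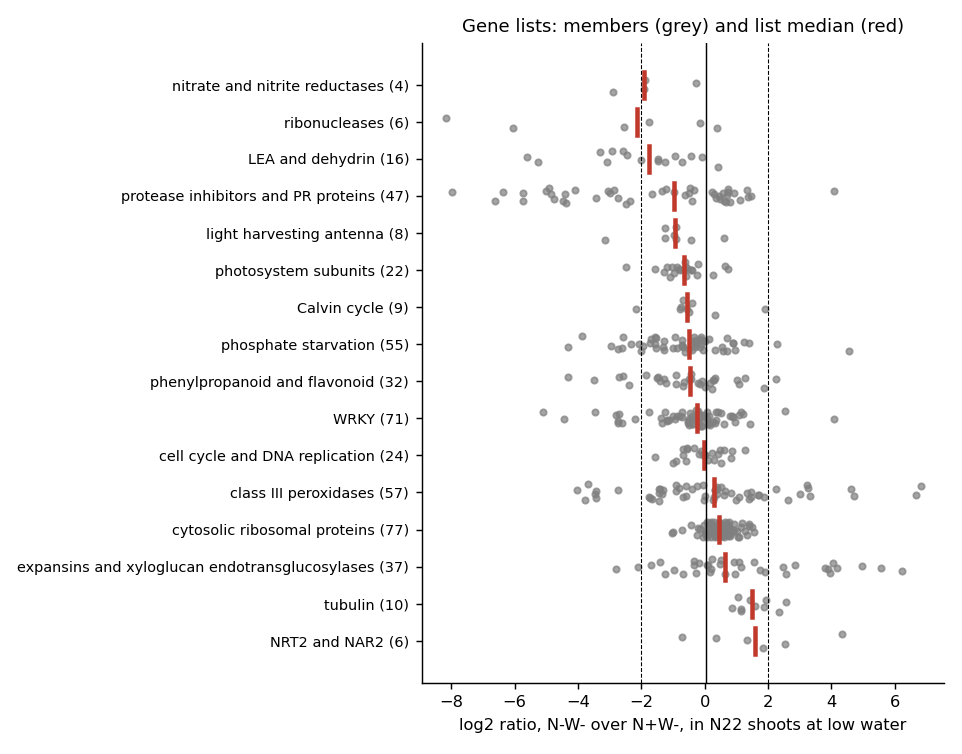
Log2 ratio of N-W- over N+W- in N22 shoots at low water for members of 16 gene lists of at least 1 CPM (grey points, their number in brackets) with the list's median (red bar); dashed lines mark the fold rule. Reductases, ribonucleases and LEA genes have medians between -2.15 and -1.74, all 10 tubulins are above 0, and peroxidases and expansins have members on both sides.

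Of 72 phosphate starvation genes, 55 were above 1 CPM, of which 9 were lower, against 4.23% of all genes, and 2 higher, against 6.54%, with a median of -0.51 that was 0.00 with RPKM. OsSPX5 and OsSPX3, phosphate sensors, had 3 and 5 reads in N-W- shoots and 43 and 49 in N+W- shoots. The purple acid phosphatase OsPAP10a had 157 reads in N-W- shoots and 383 in N+W- shoots and fell (adjusted p = 0.0372, edgeR's quasi-likelihood test), while OsPAP7 had 251 reads in N-W- shoots and 6 in N+W- shoots.

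Of 39 phenylpropanoid and flavonoid genes, 32 were above 1 CPM, of which 5 were lower, against 4.23% of all genes, and 1 higher, against 6.54%, with a median of -0.46 that was 0.03 with RPKM. OsPAL07, a phenylalanine ammonia-lyase at the entry of the pathway, had 835 reads in N-W- shoots and 3284 in N+W- shoots. OsCAD5 had 3 reads in N-W- shoots and 43 in N+W- shoots and fell (adjusted p = 0.0269, edgeR's quasi-likelihood test).

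Some of the lower genes lay next to each other. Counting along the chromosome over genes above 1 CPM, 229 of the 950 lower genes (24.1%) had a neighbour past the rule in the same direction, in 97 runs with at most 6 genes. For higher genes, these were 284 of 1467 (19.4%), in 130 runs with at most 5 genes. Over all genes 4.23% were lower and 6.54% higher, a gene has a neighbour on each side, and whether these shares exceed chance was not tested. The runs described next were chosen after their values were seen.

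On chromosome 2, at 21608220-21906238 of IRGSP-1.0, 11 of 12 genes were lower, with a median of -3.45 and one of -0.57 in IR64. This region holds genes of diterpenoid phytoalexins, antimicrobial compounds of rice. The diterpene cyclase OsCPS2 had 19 reads in N-W- shoots and 174 in N+W- shoots of N22. The cytochrome P450 CYP76M5 had 12 reads in N-W- shoots and 92 in N+W- shoots of N22, against 26 in N-W- shoots and 27 in N+W- shoots of IR64. OsKS7 was the exception, at a log2 ratio of -0.17, and 4 of the 12 genes had no unique reads.

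A further group of diterpenoid genes lies on chromosome 4. There, at 5318060-5387215, OsCPS4 had 1 read in N-W- shoots and 20 in N+W- shoots, and OsMAS, which makes momilactone, had 6 reads in N-W- shoots and 58 in N+W- shoots. The 4 genes of that run had a median of -3.79 in N22 and -0.71 in IR64, with at most 14 reads of any of them in an IR64 low-water library.

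On chromosome 12, at 22580880-22601182, the PR10 genes RSOsPR10, RPR10b, PR10 and OsPR10a had a median of -4.89 in N22 and 0.27 in IR64. RSOsPR10 had 20 reads in N-W- shoots and 355 in N+W- shoots of N22, and 56 in N-W- shoots and 65 in N+W- shoots of IR64. At ample water these 4 genes had a median of -6.68 in N22. The genotype difference was not called in any gene of the 3 runs by the genotype-by-nitrogen test, which takes both water levels together.

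In 2 other runs the medians of N22 and IR64 were closer to each other. On chromosome 1, at 1338241-1366502, RBBI2-2, the other Bowman-Birk inhibitors and Os01g0124700, which had no unique read, had a median of -3.25 in N22 and -3.56 in IR64. On chromosome 10, at 2999345-3032661, 5 genes from Os10g0150300 to Os10g0150800 were higher, with a median of 7.49 in N22 and 8.41 in IR64, and all 5 rose in the joint fit, with adjusted p between 0.0132 and 0.0234 in edgeR's quasi-likelihood test. The zinc transporter OsZIP9 on chromosome 5 had 11 reads in N-W- shoots and 352 in N+W- shoots, and its neighbour OsZIP5 had 60 in N-W- shoots and 208 in N+W- shoots. The PR1 run on chromosome 7, at 1319034-1524512, had a median of -5.42 in N22 and -1.94 in IR64. In the PR1 run and in the run of OsZIP9, the lowest share of unique reads for a gene was 0%. The 4 higher genes of the OsNTP12 run on chromosome 12 had one of 3.66 in N22 and 2.66 in IR64. Over all 5 genes of that interval the medians were 2.88 in N22 and 0.60 in IR64.

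**Figure D5:**
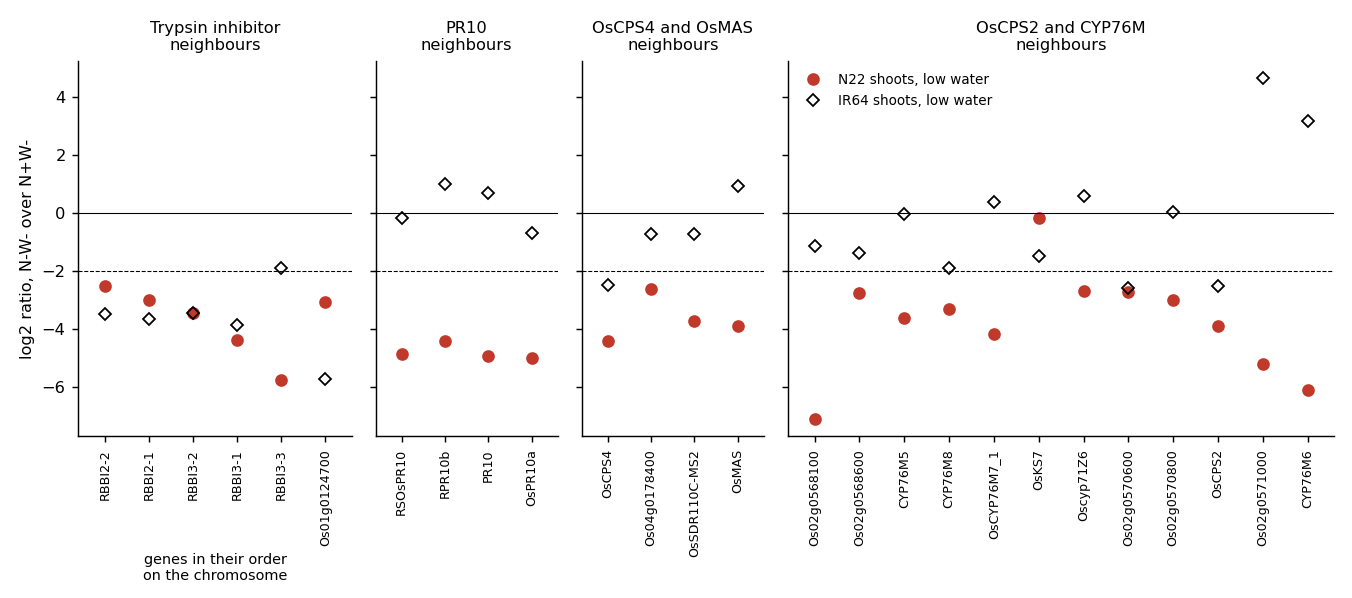
Log2 ratio of N-W- over N+W- for neighbouring genes, in chromosome order (horizontal axis), in N22 shoots at low water (red) and IR64 shoots at low water (open diamonds). In the run of Bowman-Birk inhibitors both genotypes are below 0, with medians of -3.25 and -3.56, while in the PR10 run the medians are -4.89 in N22 and 0.27 in IR64; a gene without a read in a library is drawn with 0.5 reads added.

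Across all genes the N22 comparison was set beside 3 others that share no library with it. In IR64 shoots at low water, 12.2% of genes were higher and 4.59% lower. Of the N22 genes, 726 higher genes were also higher there (49.5% of the N22 and 26.1% of the IR64 genes) and 31 were lower, and 331 lower genes were also lower (34.8% of the N22 and 31.7% of the IR64 genes) and 44 were higher. In N22 shoots at ample water, where 18% were higher and 10.6% lower, 818 higher genes were shared (55.8% of the low-water and 19.2% of the ample-water genes), as were 396 lower genes (41.7% and 15.7%). In the opposite direction there were 91 of the higher and 89 of the lower genes. The N-W+ library of that comparison holds 2420338 exon reads, the fewest of the shoot libraries. Both ample-water libraries are labelled as 15-day-old seedlings, against 21 days at low water. In N22 roots at low water, where 2.35% were higher and 3.89% lower, 67 higher genes were shared (4.57% of the shoot and 12.6% of the root genes), as were 167 lower genes (17.6% of the shoot and 18.9% of the root genes). In the opposite direction there were 44 of the higher and 33 of the lower shoot genes. Over genes above 1 CPM in both comparisons, Pearson's r of the log2 ratios was 0.53 with IR64 shoots (20537 genes), 0.40 with ample-water shoots (21527 genes) and 0.13 with roots (20018 genes). These correlations are across genes, which are not independent replicates.

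The test of a difference in nitrogen effect between N22 and IR64, taken over both water levels, called 0 of 22913 genes in edgeR's quasi-likelihood test, where 548 genes had an unadjusted p under 0.05. DESeq2 called 21 genes for this term. The test of a difference between low and ample water, averaged over the genotypes, also called 0, where 2140 genes had an unadjusted p under 0.05, against 157 calls by DESeq2. Its water levels also differ in labelled age. The differences between N22 and IR64 given above are thus values of single pooled libraries.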

How the data were processed

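Poly(A) RNA pooled over biological replicates was sequenced by the authors, 1 library per genotype, tissue and treatment. The counts deposited by the authors are integers, given per gene for exons alone and for exons with introns, as totals and as uniquely mapped reads. The authors obtained them in the CLC Genomics Workbench on the IRGSP-1.0 gene models of RAP-DB after trimming with sickle. CASAVA is named in the submitters' processing notes. RPKM values, also deposited by the authors, relate reads to exon length and library size, and were used for levels between genes and for 1 alternative. TPM values, as deposited by the authors, were not used. Reads were not mapped again and no sequence was examined.

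Total exon reads of the N22 shoot N-W- and N+W- libraries were scaled by TMM factors of 1.18 and 0.979, computed over the 8 shoot libraries. Genes of at least 1 CPM in 1 library, taken on library totals before TMM scaling, were kept. Log2 ratios had a prior count of 0.5, and 95% intervals were exact (Clopper-Pearson) on the reads of both libraries. No p-value was computed for the N22 pair. The joint edgeR fit modelled treatment and genotype on genes kept by filterByExpr, with a robust quasi-likelihood test and Benjamini-Hochberg adjustment at 0.05. Interaction terms of nitrogen with genotype and of nitrogen with water were fitted separately. The steps were tested on simulated data.

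The comparison, its members and the 46 gene lists were chosen with earlier results of these data known. Lists are patterns on gene symbols, which 9826 genes carry, set by names and not by values. Named genes were the 12 higher and 12 lower with a symbol, and the 3 without, whose interval lay farthest from 0, the 5 of most reads per exon length in each library, up to 6 members per list, and all nitrogen genes. Not all of the named NRT1/PTR genes are given singly in the text. Genes named for passing the joint test, for lying in runs, for an exception to their list or for a contrast with IR64 were chosen after their values were seen. Alternatives covered scaling, read type, unit, filters, tool and each library left out. R 4.3.3, edgeR 4.0.16, DESeq2 1.42.0, Python 3.11.15, pandas 2.3.3 and scipy 1.17.1 were used.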

Additional observations from a re-analysis of the deposited data

Results flagged for a closer look

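In 6 genes of the lists, or named for their size, the ratio was past the fold rule in opposite directions in N22 shoots at low water and in another comparison. None of these contrasts was tested for the single pair of libraries, and none of these genes was called by the genotype-by-nitrogen or nitrogen-by-water tests, which average over water levels or genotypes.

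OsCAD8A, of the lignin pathway, had 6 reads in N-W- shoots and 44 in N+W- shoots of N22 at low water, a log2 ratio of -3.49. In IR64 at low water it had 38 reads in N-W- shoots and 4 in N+W- shoots, a ratio of 3.14, and in N22 at ample water 7 in N-W+ shoots and none in N+W+ shoots. The glutathione S-transferase OsGSTF7 had 3 reads in N-W- shoots and 20 in N+W- shoots of N22, a ratio of -3.23, and 27 in N-W- shoots and 6 in N+W- shoots of IR64, a ratio of 2.13. Of its reads, 26.1% were unique.

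OsPCF5 had no read in N-W- shoots and 87 in N+W- shoots at low water, a ratio of -7.87, against 135 in N-W+ shoots and none in N+W+ shoots at ample water, with 2.3% unique reads. The auxin efflux carrier PIN1C had a ratio of -2.11 at low water and 2.94 at ample water. The small heat shock protein genes Oshsp16.9B and Oshsp16.9A had ratios of -3.39 and -3.31 at low water and 2.29 and 2.55 at ample water, with 18.8% and 27.0% unique reads.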

How the results depend on the processing

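No paired analysis was possible because the labels carry no replicate numbers and each group is 1 library. The count of 2417 genes past the fold rule was 422 with RPKM and a pseudocount of 1, 1177 with a filter of 5 CPM, 5198 with no filter and 925 where the whole interval had to pass. Library totals moved the median of all genes by 0.26 and RPKM by 0.23 (log2), and the share of higher genes among those past the rule was then 69.2% (1746 higher, 778 lower) and 69.4% (293 higher, 129 lower), against 60.7% in the main result and 55.1% at 5 CPM (649 higher, 528 lower). DESeq2 size factors, total gene reads and unique reads gave between 1952 and 2423 genes, and genes of at least 50% unique reads, an alternative chosen after seeing the data, gave 1633. Of the 316 named genes, 116 moved beyond their interval with library totals and 264 with RPKM, and none past the rule changed sign. With RPKM, some ratios as far below 0 as -0.49 turned positive, among them those of OsGLT2, OsAMT2_3, GRP162 and OsGDH2. RBCS_1, OsNPF7.2, ASN1, Os01g0256500, PIN1C, OsLEA14, OsERF#069, OsCslE6 and OsGSTU50 came within the rule with library totals, and OsNPF7.2, NRT2.1, PIN1C and NAS2 with unique reads. Of the 50 list and marker medians, 17 moved with library totals, and those near 0 changed sign, among them WRKY, auxin response and cell cycle. With unique reads 4 named genes had no value.

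The 327 joint calls became 1606 with DESeq2, 616 with no filter and 552 with unique reads. Leaving out each library in turn gave between 0 and 1073 calls. The lowest counts were 0 without the IR64 N+W- library, 7 without the N22 N+W- library and 140 without the IR64 N-W- library, and the highest were 1073 without the N22 N-W- library, 560 without the IR64 N-W+ library and 510 without the N22 N-W+ library. With an arm of 1 library, it was assumed to vary like the others. The genotype-by-nitrogen calls were 21 and the nitrogen-by-water calls 157 with DESeq2, and 0 in the other fits. Depth limits genes of few reads: in the N+W- library 3 reads equal 0.469 CPM.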

Other observations

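OsNAAT1, a nicotianamine aminotransferase of phytosiderophore synthesis, was at 24.8 CPM in N-W- shoots and 510 CPM in N+W- shoots of N22, and it fell in the joint fit by 4.88 on the log2 scale (SE 0.61, adjusted p = 0.0202, edgeR's quasi-likelihood test). OsNAS3, a nicotianamine synthase, had 262 reads in N-W- shoots and 999 in N+W- shoots, while the iron regulator OsIRO3 had 136 in N-W- shoots and 10 in N+W- shoots. Of 33 iron genes, 22 were above 1 CPM, of which 2 were higher and 2 lower, beside 6.54% and 4.23% of all genes, with a median of -0.04. HB2, a haemoglobin gene, was at 4.21 CPM in N-W- shoots and 94.8 CPM in N+W- shoots and fell (adjusted p = 0.0133, edgeR's quasi-likelihood test).

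Of 86 auxin response genes, 59 were above 1 CPM, of which 10 were higher, against 6.54% of all genes, and 1 lower, against 4.23%. OsIAA14 had 418 reads in N-W- shoots and 14 in N+W- shoots, and OsSAUR8 had 205 in N-W- shoots and 10 in N+W- shoots. Both rose (adjusted p of 0.0236 and 0.0178, edgeR's quasi-likelihood test). OsGSR1, a gibberellin-stimulated gene, had 171 reads in N-W- shoots and 3 in N+W- shoots, the transcription factor OsERF#033 had 561 in N-W- shoots and 30 in N+W- shoots, and the aquaporin OsNIP1_3 had 1237 in N-W- shoots and 123 in N+W- shoots. These genes rose too (adjusted p of 0.0298, 0.0178 and 0.0337, edgeR's quasi-likelihood test). Of 99 WRKY transcription factors, 71 were above 1 CPM, of which 9 were lower, against 4.23% of all genes, and 2 higher, against 6.54%, with a median of -0.23. The joint test covered 69 of the 71 and called none.

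The vacuolar processing enzyme gene OsVPE2 was at 1208 CPM in N-W- shoots and 323 CPM in N+W- shoots, a log2 ratio of 1.90. Of 45 autophagy and senescence protease genes, 39 were above 1 CPM, of which 1 was higher and 1 lower, beside 6.54% and 4.23% of all genes. Of 58 heat shock genes, 47 were above 1 CPM, of which 3 were higher and 2 lower, near the shares of 6.54% and 4.23% over all genes.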
